A study of Mus musculus with 6 samples.

Results

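The oligodendrocyte lineage genes described here are Olig1, Olig2, Sox10, Nkx2-2, Pdgfra, Cspg4, Mbp, Cnp and Mog, a named list of 9 genes that mark or drive the path from oligodendrocyte progenitor to myelinating cell. They were matched by NCBI gene identifier in tables that together list 17254 genes. Of the 9 genes, 8 had an entry in at least 1 table, and 5 (Olig1, Olig2, Nkx2-2, Pdgfra and Cnp) passed the filter of 1 FPKM on the mean over libraries, as did 11717 genes in all, and were tested. FPKM is a fragment count scaled by transcript length and library total, so it can be compared between genes.

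The study asked how oxidative stress and its relief alter gene expression in cultured neural stem and progenitor cells of the newborn mouse. RNA was sequenced from 6 libraries after 48 h: 2 control libraries, 2 from cells treated with paraquat (PQ), a compound that generates superoxide inside cells, and 2 from cells treated with the thiol antioxidant N-acetylcysteine (NAC). The labels of PQ 1 state a PQ dose of 5 µM, and those of PQ 2 state none. For the sequenced cells, the study's methods give 5 µM PQ and 5 mM NAC. All groups grew in N2 medium with the mitogens EGF and bFGF, and the methods describe an immortalized culture from the subventricular zone that lacks Ink/Arf, so every group, controls included, would carry that deletion. The labels of control 1 and PQ 1 give the genotype as "Ink/Ark knockout" and the strain as C57BL/6, while the other 4 labels give neither. Gene-level counts do not show which exons were read, so the deletion could not be checked from them. The locus gene Cdkn2a had 137 and 162 expected counts in control 1 and control 2, 120 and 130 in PQ 1 and PQ 2, and 130 and 131 in NAC 1 and NAC 2.

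The expected counts, which are estimates that share reads between genes, summed to 9849392 in control 1 and 10040827 in control 2. They summed to 10388731 in PQ 1, 9680436 in PQ 2, 10698241 in NAC 1 and 9907726 in NAC 2, so the libraries were of similar depth. Control 1 and PQ 1 have labels that differ from those of the other 4 libraries in the RNA extraction kit, sequencing platform and alignment tools. Both NAC libraries lie in the second of these label sets, where control 2 is the only control. For this reason, differences within a label set are given for the tested lineage genes and for some of the other genes. The labels do not say whether the libraries of a group came from separate cultures, so the p-values measure only the spread between these libraries.

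Oligodendrocytes form the myelin sheaths of the brain and arise from progenitors that are specified by Olig and Nkx transcription factors and that divide in response to platelet-derived growth factor. Sox10 and later Myrf switch on the myelin genes as these progenitors leave the cell cycle. Cultured neural stem cells from the subventricular zone can give rise to oligodendrocytes, astrocytes and neurons, and growth in mitogens is known to favour Olig2 expression in them.

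By mean FPKM the order was Olig1, Olig2, Cnp, Nkx2-2, Pdgfra, Cspg4, Mbp and Sox10, with Mog absent from every table. Over the 6 libraries, Olig1 ranged from 320 to 554 FPKM and Olig2 from 267 to 355, so these neighbours overlapped, with Olig1 the higher in 5 of 6 libraries. The ranges of all other neighbours in the order lay apart: Cnp at 55.1 to 65.6, Nkx2-2 at 15.4 to 25.1, Pdgfra at 8.86 to 13.9, Cspg4 at 0.67 to 0.95, Mbp at 0.1 to 0.63 and Sox10 at 0 to 0.04. The early factors of the lineage were thus abundant in these cultures, while Sox10 and the myelin genes Mbp and Mog were at or near 0. Olig1 ranked 138 and Olig2 ranked 188 by mean FPKM among the 17254 genes.

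**Figure D1:**
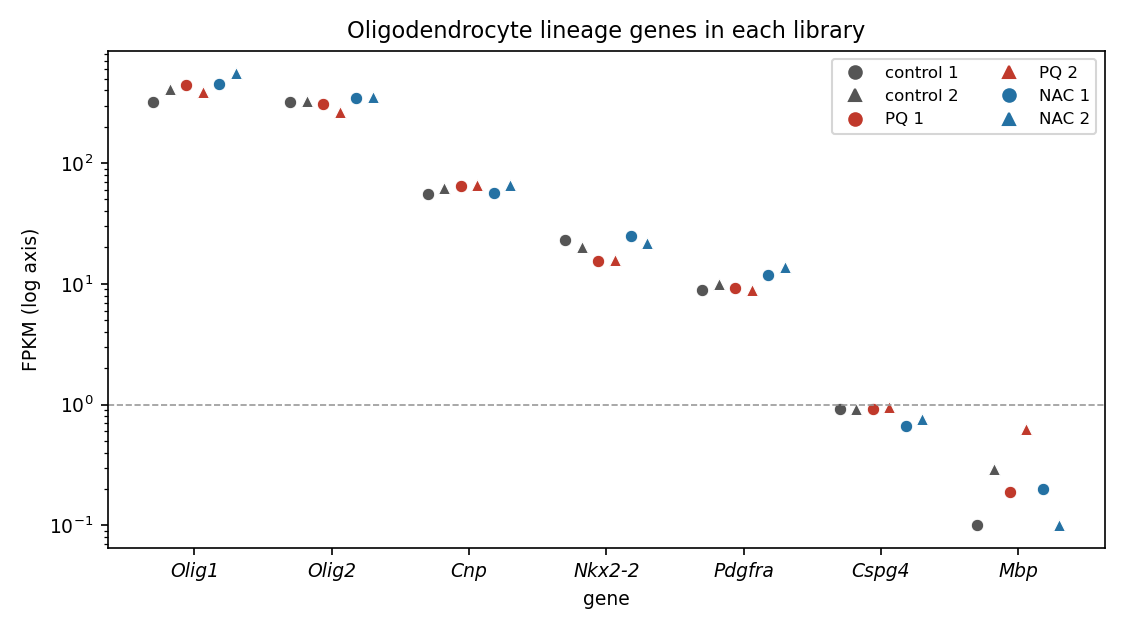
FPKM on a log axis for 7 of the 9 genes, with 1 point for each library, coloured by group; Sox10 (0.04 or less) and Mog (absent) cannot be shown, and the dashed line marks the filter at 1 FPKM. Olig1 and Olig2 lie between 267 and 554, Cspg4 and Mbp stay under 1, and the PQ libraries are the lowest for Nkx2-2 at 15.4 and 15.8.

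Across all 11717 genes tested with the edgeR quasi-likelihood test, 2250 (19.2%) had an adjusted p under 0.05 in PQ over control, 9.76% higher and 9.45% lower, and 1 of the 5 tested lineage genes did, Nkx2-2, which was lower. In NAC over control the test called 2186 genes (18.7%), 9.01% higher and 9.64% lower, and 2 of the 5 lineage genes, Olig1 and Pdgfra, both higher. In PQ over NAC it called 3708 genes (31.6%), 16% higher and 15.7% lower, and 3 of the 5, Olig2, Nkx2-2 and Pdgfra, all lower in PQ. The median log2 fold change of the 5 genes was -0.09 in PQ over control, 0.07 in NAC over control and -0.26 in PQ over NAC, against -0.00, -0.00 and 0.00 for all genes tested. With 5 genes tested, each count lay within 2 calls of what the share among all genes gives. The first and the second comparison share the control libraries, and the PQ over NAC comparison shares libraries with both. In bulk RNA, fewer cells of a type and less RNA per cell cannot be told apart.

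**Figure D2:**
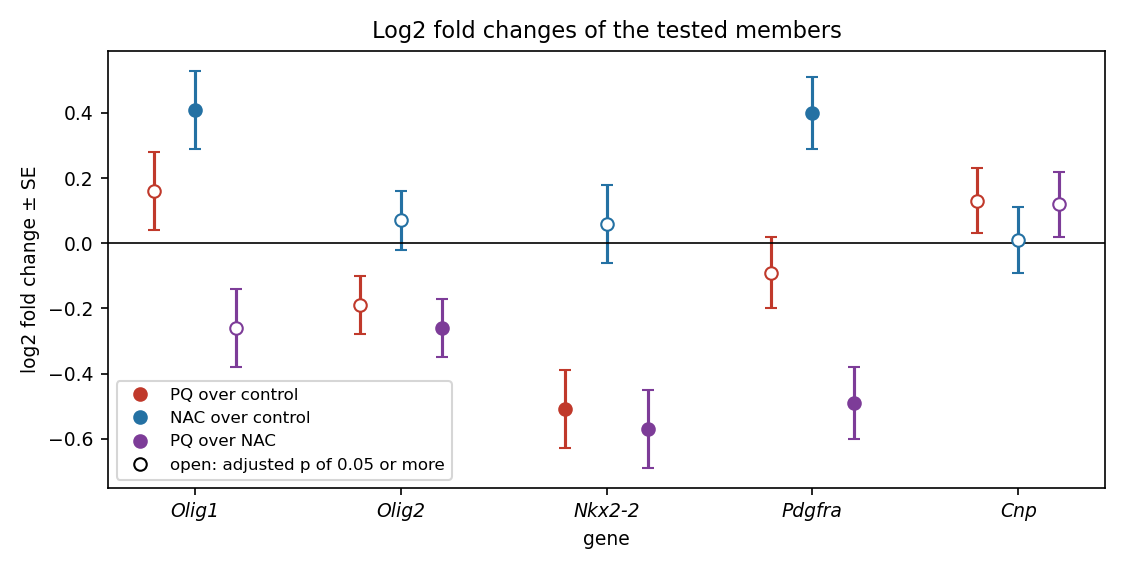
Log2 fold change of the 5 tested genes in the 3 comparisons, with bars of 1 standard error and filled points for an adjusted p under 0.05. Nkx2-2 is lower in PQ against both other groups (-0.51 and -0.57), while Olig1 and Pdgfra are higher in NAC than in control (0.41 and 0.40) and Cnp is called in no comparison.

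Among the transcription factors, Olig2 (gene 50913) is the basic helix-loop-helix factor that specifies the lineage, and Olig1 (gene 50914) is its close relative that acts in maturation. In the RefSeq annotation of GRCm38.p6 both lie on chr16, Olig2 at 91225550-91228677 and Olig1 at 91269769-91271939, with 41091 bases between them. The deposited tables hold no coordinates, and their labels name mm10, the same assembly, for 4 libraries and mm9 for the other 2. Olig2 had 321 and 328 FPKM in control 1 and control 2, 311 and 267 in PQ 1 and PQ 2, and 348 and 355 in NAC 1 and NAC 2. The 3 groups did not overlap: both PQ libraries were lowest and both NAC libraries highest, with PQ 2 farthest from the rest. The log2 fold change was -0.19 ± 0.09 (SE) in PQ over control with an adjusted p of 0.15, and 0.07 ± 0.09 in NAC over control with an adjusted p of 0.65. PQ over NAC gave -0.26 ± 0.09 with an adjusted p of 0.033. That last call was lost in 5 of 15 alternative settings, among them the label set as a covariate (-0.31, adjusted p 0.054) and without PQ 2 (-0.17, 0.32), NAC 1 (-0.27, 0.12) or NAC 2 (-0.25, 0.13). Within label sets, the log2 difference was -0.09 for PQ 1 minus control 1 and -0.30 for PQ 2 minus control 2, and it was 0.06 and 0.07 for NAC 1 and NAC 2 minus control 2. PQ 2 stood at -0.35 and -0.37 log2 units against NAC 1 and NAC 2.

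Olig1 had 320 and 414 FPKM in control 1 and control 2, 445 and 388 in PQ 1 and PQ 2, and 454 and 554 in NAC 1 and NAC 2. Control 1 was the lowest library and NAC 2 the highest, the control and PQ ranges overlapped, and both NAC libraries lay above all the others. In NAC over control Olig1 rose by 0.41 ± 0.12 log2 units with an adjusted p of 0.017. The call was lost without control 1 (0.25, adjusted p 0.18), without NAC 2 (0.27, 0.23), with the label set as a covariate (0.37, 0.066) and with limma on log2(FPKM + 1) (0.46, 0.059) or log2(FPKM + 0.1) (0.46, 0.055). Against the only control of the same label set, NAC 1 stood 0.10 and NAC 2 stood 0.38 log2 units higher. In PQ over control the log2 fold change was 0.16 ± 0.12 with an adjusted p of 0.39, and the sign differed between the label sets, 0.43 for PQ 1 minus control 1 and -0.10 for PQ 2 minus control 2. Without control 2 this comparison gave 0.34 with an adjusted p of 0.044, and without control 1 it gave -0.01. PQ over NAC gave -0.26 ± 0.12 with an adjusted p of 0.1; it passed the threshold without control 1 (adjusted p 0.039) or control 2 (0.04), with only the 4 libraries compared (0.039) and with no filter on low values (0.018). Within the second label set, PQ 2 stood at -0.20 and -0.47 against NAC 1 and NAC 2.

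The ratio of Olig1 to Olig2 in FPKM was 1.00 in control 1 and 1.26 in control 2, 1.43 and 1.45 in PQ 1 and PQ 2, and 1.31 and 1.56 in NAC 1 and NAC 2. It was lower in both control libraries than in any treated library, and the difference was not tested. The list of genes of the same stretch of chr16 beyond Olig1 holds 7 genes, Ifnar2, Il10rb, Ifnar1, Ifngr2, Tmem50b, Gart and Son, from 91372783 to 91679192, and Son was the most abundant. In PQ over control 2 of these 7 were called, Ifngr2 higher with a log2 fold change of 0.54 ± 0.11 (adjusted p 0.0015) and Gart lower with -0.49 ± 0.10 (0.0025), and both calls held in all 15 alternative settings. This count of 2 of 7 is near the share called among all genes tested (19.2%). The median of the 7 was 0.10 in PQ over control and 0.16 in NAC over control.

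Nkx2-2 (gene 18088, chr2:147176485-147195434) encodes a homeodomain factor that acts in the change from progenitor to differentiating oligodendrocyte. It had 22.9 and 20.3 FPKM in control 1 and control 2, 15.4 and 15.8 in PQ 1 and PQ 2, and 25.1 and 21.6 in NAC 1 and NAC 2. Both PQ libraries lay below all the others, and the control and NAC ranges overlapped. The expected counts behind these values were 456 and 407 in control, 316 and 306 in PQ, and 540 and 426 in NAC. Nkx2-2 was lower in PQ than in control by a log2 fold change of -0.51 ± 0.12 with an adjusted p of 0.0071. That call was lost without control 1 (-0.41, adjusted p 0.053) and without PQ 1 (-0.47, 0.085), while the log2 difference was -0.65 within the first label set and -0.36 within the second. Against NAC the log2 fold change was -0.57 ± 0.12 with an adjusted p of 0.0015, and it passed the threshold in all 15 alternatives, from -0.69 to -0.44 when a library was left out. PQ 2 stood at -0.65 and -0.40 log2 units against NAC 1 and NAC 2 of the same label set. In NAC over control it was 0.06 ± 0.12 with an adjusted p of 0.77, and it took the opposite sign without control 2 (-0.04) and without NAC 1 (-0.07), with differences of 0.29 and 0.04 for NAC 1 and NAC 2 minus control 2. The antisense gene Nkx2-2os overlaps Nkx2-2 and had 14 to 27 counts a library. The study's methods name a stranded library kit, the labels of 4 libraries describe another preparation, and neither says whether strand was used in counting.

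Sox10 (gene 20665, chr15:79154913-79164490), the factor that turns on myelin genes, had 0 expected counts in both control and both PQ libraries and 1 count in each NAC library. No fold change is given for it, since every group was at or under 3 counts. Its relative Sox8 (gene 20681), which shares roles with Sox10 in the lineage, had 34.5 and 32.5 FPKM in control 1 and control 2, 34.1 and 26.8 in PQ 1 and PQ 2, and 67.8 and 68.0 in NAC 1 and NAC 2. Both NAC libraries stood far above the other 4, which overlapped. Sox8 rose by 0.97 ± 0.11 log2 units in NAC over control with an adjusted p of 3.1e-06, a call kept in all 15 alternatives, and NAC 1 and NAC 2 stood 1.03 and 1.02 above control 2.

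Promoter sequence in the RefSeq tables of GRCm38.p6 was found for 6 of the 9 genes: Olig2, Nkx2-2, Pdgfra, Cspg4, Cnp and Mog. The promoters of the 3 genes called lower in PQ than in NAC are shown, because this is the comparison with the most calls among the lineage genes and because the Olig factors bind E-boxes, which have the letters CANNTG on both strands. Against control these 3 genes did not share a pattern: Nkx2-2 was called only in PQ, Pdgfra only in NAC and Olig2 in neither. Capitals mark the E-boxes. Each window ends at the transcript start that the table uses. For Olig2 this is the start of the annotated gene, and the 250 bases before it are given (chr16:91225300-91225549, plus strand). For Nkx2-2 and Pdgfra the windows lie inside the annotated gene, before an internal transcript start. The stretches given are the 150 bases of the Nkx2-2 window farthest from that start (chr2:147186503-147186652, minus strand) and the 250 bases of Pdgfra (chr5:75152001-75152250, plus strand).
Olig2: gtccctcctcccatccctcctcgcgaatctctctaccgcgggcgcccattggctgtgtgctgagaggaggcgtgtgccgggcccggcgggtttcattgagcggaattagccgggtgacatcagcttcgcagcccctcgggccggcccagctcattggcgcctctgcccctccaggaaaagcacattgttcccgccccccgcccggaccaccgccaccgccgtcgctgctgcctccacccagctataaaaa
Nkx2-2: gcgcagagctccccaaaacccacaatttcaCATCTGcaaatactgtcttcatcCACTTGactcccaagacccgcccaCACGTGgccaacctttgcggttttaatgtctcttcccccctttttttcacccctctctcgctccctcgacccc
Pdgfra: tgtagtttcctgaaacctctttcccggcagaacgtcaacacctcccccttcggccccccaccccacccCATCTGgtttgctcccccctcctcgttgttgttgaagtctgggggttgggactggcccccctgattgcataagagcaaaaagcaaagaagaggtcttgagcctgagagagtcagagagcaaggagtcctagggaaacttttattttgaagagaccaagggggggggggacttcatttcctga
The Olig2 stretch held 0 E-boxes in these 250 bases, with a GC content of 66.8%, the Nkx2-2 stretch held 3 and the Pdgfra stretch held 1. Among 32851 promoter windows, 66.2% held at least 1 E-box in 250 bases. In the 150 bases farthest from the start, 49.3% held at least 1 and 3.77% held 3 or more. The Cnp window held 1, and the Cspg4 and Mog windows held 0. The FOXO motif TGTTTAC was found in 0 of the 6 stretches and in 3.17% of all windows of 250 bases. A match is a string of letters and was not tested for binding.

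Pdgfra (gene 18595, chr5:75151322-75198206) encodes the receptor through which platelet-derived growth factor A keeps progenitors dividing, and the letters before an internal start are given above. It had 8.92 and 9.94 FPKM in control 1 and control 2, 9.21 and 8.86 in PQ 1 and PQ 2, and 11.8 and 13.9 in NAC 1 and NAC 2. Both NAC libraries lay above the other 4, and control and PQ overlapped on this scale. Pdgfra rose by 0.40 ± 0.11 log2 units in NAC over control with an adjusted p of 0.011. The call was lost with the label set as a covariate (0.37, adjusted p 0.051), without control 1 (0.33, 0.067) and without NAC 2 (0.29, 0.16), and NAC 1 and NAC 2 stood 0.22 and 0.44 log2 units above control 2. PQ over control gave -0.09 ± 0.11 with an adjusted p of 0.63, and -0.00 and -0.17 within the label sets. PQ over NAC gave -0.49 ± 0.11 with an adjusted p of 0.0015, and this difference passed the threshold in all 15 alternatives, from -0.59 to -0.38 when a library was left out. PQ 2 stood at -0.39 and -0.61 against NAC 1 and NAC 2.

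Cspg4 (gene 121021, chr9:56865104-56899870) encodes the NG2 proteoglycan on the surface of progenitors and of pericytes. It had 0.91 and 0.92 FPKM in control 1 and control 2, 0.92 and 0.95 in PQ 1 and PQ 2, and 0.67 and 0.76 in NAC 1 and NAC 2, so it missed the filter. Both NAC libraries were lowest, at 58 and 61 expected counts against 73 to 78 in the other 4. In the fit with no filter, over 17209 genes, the log2 fold change was -0.41 ± 0.21 in NAC over control with an adjusted p of 0.22 and 0.00 ± 0.21 in PQ over control with an adjusted p of 1.0. The receptor Pdgfra and the proteoglycan Cspg4, which mark the same progenitors, thus stood on opposite sides of control in the NAC libraries, and that contrast was not tested. Of 7 pericyte markers 0 passed the filter, their summed FPKM lay between 0.71 and 2.01, and the most abundant was Acta2.

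Cnp (gene 12799, chr11:100574909-100591875) encodes an enzyme of the myelin sheath that is already made before myelin forms. It had 55.1 and 61.8 FPKM in control 1 and control 2, 64.8 and 65.4 in PQ 1 and PQ 2, and 56.0 and 65.6 in NAC 1 and NAC 2. Control 1 and NAC 1 were the lowest, and the spread between the NAC libraries covered most of the range. The log2 fold changes were 0.13 ± 0.10 in PQ over control, 0.01 ± 0.10 in NAC over control and 0.12 ± 0.10 in PQ over NAC, with adjusted p of 0.42, 0.96 and 0.4. The value in NAC over control took the opposite sign with the label set as a covariate (-0.03), without control 1 (-0.06) and without NAC 2 (-0.1). Within label sets the differences were 0.19 and 0.08 for PQ 1 and PQ 2 minus their controls and -0.17 and 0.04 for NAC 1 and NAC 2 minus control 2. Cnp overlaps Dnajc7, which had 1439 to 1925 counts a library.

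Mbp (gene 17196), whose protein compacts the myelin membrane, had 3.37 and 8.58 expected counts in control 1 and control 2, 5.86 and 15.8 in PQ 1 and PQ 2, and 6.49 and 3.29 in NAC 1 and NAC 2. The groups overlapped, and PQ 2 was the highest library. With no filter, PQ over control gave 0.83 ± 0.68 with an adjusted p of 0.53 and NAC over control -0.50 ± 0.80 with an adjusted p of 0.76, so a difference was not detectable at this depth. Mog (gene 17441, chr17:37010740-37023398), a late protein of the outer myelin surface, was in none of the tables, which leave out genes without reads.

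The genes most like each tested member over the 6 libraries, by Pearson r of log2 CPM (counts scaled to library size), are given as a description. For Olig1 they were Agap3 (0.993), Qtrt1 (0.993) and Ndor1 (0.991), and for Olig2 they were Fmn2 (0.992), Zfp266 (0.992) and Peg3os (0.984). For Nkx2-2 they were Gps2 (0.998), Kif20b (0.997) and Ccdc18 (0.997), with Gps2 at 36.0 and 30.9 FPKM in control, 23.9 and 24.1 in PQ, and 38.8 and 33.6 in NAC. Pdgfra was most like Gm13375 (0.993), Mir5113 (0.992) and Slc29a2 (0.990), and Cnp most like Dffa (0.992), Nod1 (0.984) and Nom1 (0.984). These are the highest of 11717 genes over 6 libraries, and none of them is on the gene lists used here.

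Of 13 other transcription factors of the lineage, 10 were tested, and Nkx6-1 was in no table. In PQ over control 1 was called higher (Myrf) and 1 lower, in NAC over control 2 were called higher (Sox6 and Sox8) and 0 lower, and in PQ over NAC 2 were called higher and 5 lower, against 19.2%, 18.7% and 31.6% of all genes tested. In the first 2 comparisons the list was near that share. Their median log2 fold changes were -0.03, 0.14 and -0.30. Myrf, the activator of myelin genes, had 0.88 and 0.84 FPKM in control, 2.0 and 1.4 in PQ, and 0.61 and 0.66 in NAC. It passed the filter of 1 FPKM only through the PQ libraries, where it is high, so its call is no support for a direction. It rose by 0.96 ± 0.22 log2 units (adjusted p 0.0055), a call lost without PQ 1 (0.69, 0.15) and with limma on log2(FPKM + 1) (0.53, 0.085) or log2(FPKM + 0.1) (0.89, 0.13). The rise of Sox6 in NAC over control (0.34 ± 0.09, adjusted p 0.01) was lost without NAC 2 (0.30, 0.098). Sox9 had the highest mean FPKM of the list over the 6 libraries, 45.5 against 44.0 for Sox8, at 38.1 to 54.0, but in both NAC libraries Sox8 was higher. Of 5 inhibitors of differentiation, 3 were tested and 1 was called in PQ over control: Id2, the most abundant, was higher by 0.34 ± 0.11 (adjusted p 0.031), a call lost without control 1 (0.27, 0.15), without PQ 2 (0.22, 0.31) and with DESeq2 (0.34, 0.054). In PQ over NAC Id2 was called higher (0.57 ± 0.11, adjusted p 0.00042, all alternatives) and Hes1 lower (-0.38 ± 0.11, 0.015). The Hes1 call was lost with the label set as a covariate (-0.35, 0.062), without PQ 1 (-0.25, 0.22) and without NAC 1 (-0.34, 0.11).

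Of 13 progenitor surface and matrix genes, 10 were tested, 3 were called higher and 1 lower in PQ over control, and 5 higher and 1 lower in NAC over control. In PQ over NAC 2 were called higher and 6 lower, and the shares among all genes tested were 19.2%, 18.7% and 31.6%. The medians were 0.12, 0.54 and -0.92. Summed over the list, FPKM was 167 and 168 in control 1 and control 2, 184 and 169 in PQ 1 and PQ 2, and 288 and 301 in NAC 1 and NAC 2. The NAC libraries were thus the highest for this list as they were for Pdgfra, and not as for Cspg4. Lhfpl3, a membrane protein gene used as a progenitor marker, had 2.9 and 3.11 FPKM in control, 5.2 and 5.23 in PQ, and 20.8 and 23.3 in NAC. It was higher in both treated groups than in control, by 0.77 ± 0.15 (adjusted p 0.0017) in PQ and 2.83 ± 0.14 (1.3e-10) in NAC on the log2 scale, in all 15 alternatives, and by 2.71 and 2.85 in NAC 1 and NAC 2 minus control 2. Pcdh15, a protocadherin gene, had 0.94 and 1.01 FPKM in control, 1.62 and 1.44 in PQ, and 6.65 and 7.04 in NAC. Its rise in NAC over control was 2.78 ± 0.14 (adjusted p 1.5e-10) in all alternatives, and its rise in PQ of 0.61 ± 0.16 (0.0096) was lost without PQ 1 (0.54, 0.11) and with limma on log2(FPKM + 1) (0.36, 0.11) or log2(FPKM + 0.1) (0.60, 0.074).

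The most abundant gene of that list, Ptprz1, encodes a receptor phosphatase and had 62.1 and 60.6 FPKM in control, 51.6 and 50.5 in PQ, and 109 and 104 in NAC. It rose in NAC by 0.75 ± 0.09 log2 units (adjusted p 5.4e-06, all alternatives). In PQ it was lower by -0.29 ± 0.09 (0.024), a call lost in 6 of 15 alternatives, among them without control 1 (-0.27, 0.095), PQ 1 (-0.29, 0.15) or PQ 2 (-0.29, 0.12) and with limma on log2(FPKM + 1) (-0.26, 0.06) or log2(FPKM + 0.1) (-0.27, 0.063). Vcan, which encodes the matrix proteoglycan versican, had 24.0 and 22.2 FPKM in control, 46.0 and 42.4 in PQ, and 27.0 and 29.8 in NAC. Unlike Ptprz1, it was highest in PQ, with a rise of 0.84 ± 0.09 (adjusted p 6.6e-06, all alternatives). Ednrb, an endothelin receptor gene, rose in NAC by 1.11 ± 0.10 (3.6e-07, all alternatives), and Tnr, the tenascin-R gene, was lower in NAC by -1.15 ± 0.22 (0.001, all alternatives). Of 7 premyelinating genes 3 were tested, with Fyn the most abundant at 97.4 to 127 FPKM, and against control, where the shares among all genes tested were 19.2% in PQ and 18.7% in NAC, the only call was Itpr2, lower in PQ by -0.45 ± 0.15 (adjusted p 0.035). That call was lost without PQ 1 (-0.38, 0.25), control 2 (-0.29, 0.25) or PQ 2 (-0.53, 0.075), with DESeq2 (-0.45, 0.095) and with limma on log2(FPKM + 1) (-0.27, 0.27) or log2(FPKM + 0.1) (-0.39, 0.28).

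**Figure D3:**
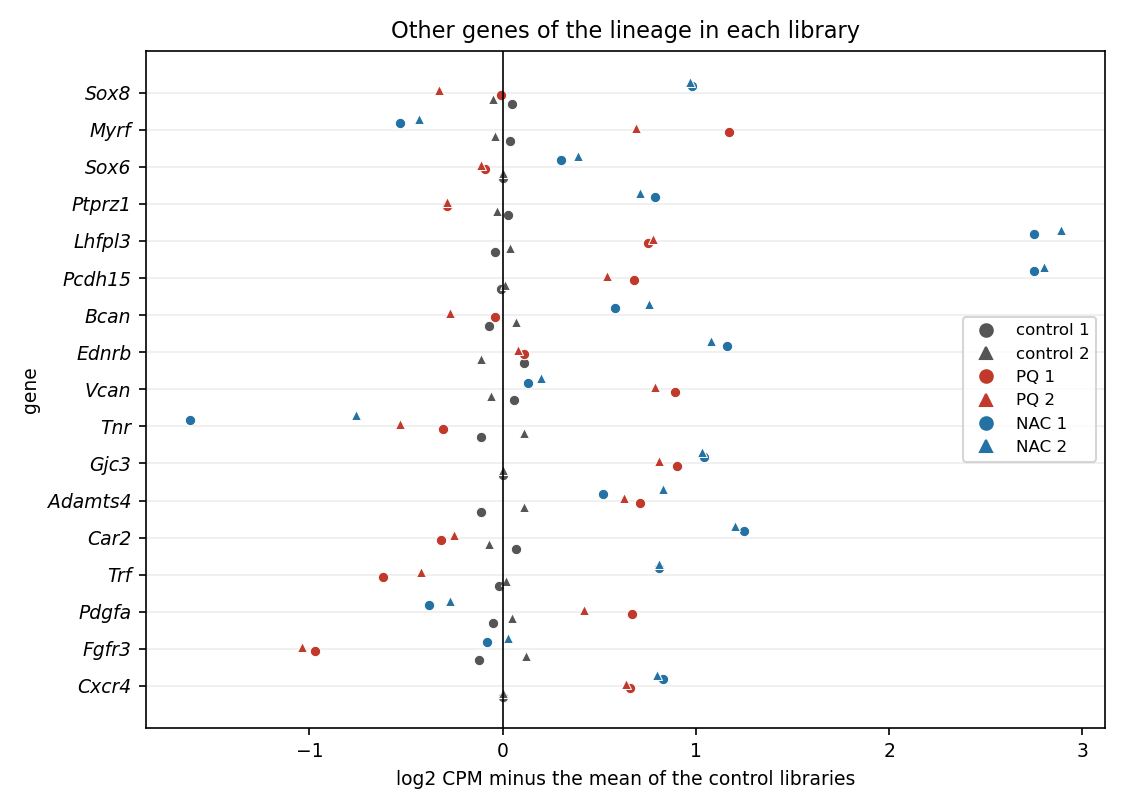
Log2 CPM (counts scaled to library size) minus the mean of the control libraries (horizontal) for 17 other genes of the lineage (vertical), with 1 point for each library, coloured by group. The NAC libraries stand far to the right for Lhfpl3 (2.75 and 2.89) and Pcdh15 (2.75 and 2.80), and the PQ libraries to the left for Fgfr3 (-0.97 and -1.04).

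Of 24 further myelin genes, 9 were tested, Mag and Opalin were in no table, and Mobp, Cldn11, Fa2h, Aspa and Gal3st1 had at most 3 counts in every library. In PQ over control 3 were called higher (Gjc3, Pllp and Adamts4) and 1 lower (Trf), and in NAC over control 6 were called, all higher, among them those 4 and Car2. In PQ over NAC 1 was called higher and 3 lower, and the shares among all genes tested were 19.2%, 18.7% and 31.6%. The medians were 0.20, 0.81 and -0.18. Summed FPKM of the list was 135 and 143 in control 1 and control 2, 176 and 165 in PQ 1 and PQ 2, and 253 and 265 in NAC 1 and NAC 2. Most of this sum came from Car2, Adamts4 and Gjc3 in every library. Of the genes that define the sheath, Mag was absent and Mobp had at most 0.08 FPKM. The gene with the highest mean FPKM over the 6 libraries was Car2, a carbonic anhydrase gene, although Adamts4 was higher in both PQ libraries (52.0 and 48.4). Car2 had 43.4 and 39.8 FPKM in control, 34.1 and 35.2 in PQ, and 102 and 99.3 in NAC. It was highest in NAC, with a rise of 1.23 ± 0.10 log2 units and an adjusted p of 8.7e-08 in all alternatives, and NAC 1 and NAC 2 stood 1.32 and 1.27 above control 2. Gjc3, a connexin gene, had 18.6 and 18.9 FPKM in control, 36.0 and 33.0 in PQ, and 39.7 and 39.7 in NAC, and rose by 0.86 ± 0.10 in PQ (adjusted p 7.9e-06) and 1.04 ± 0.10 in NAC (4.2e-07) in all alternatives. Trf, the transferrin gene, was lower in PQ at 5.49 and 6.2 FPKM against 8.09 and 8.37 in control and 14.8 and 15.0 in NAC. Its fall in PQ (-0.52 ± 0.15, adjusted p 0.017) was lost without PQ 1 (-0.42, 0.19), and its rise in NAC (0.81 ± 0.13, 0.00022) was kept in all alternatives. Adamts4, a protease gene, rose by 0.67 ± 0.11 in PQ (0.00039) and 0.68 ± 0.11 in NAC (0.00022) in all alternatives. The tetraspan gene Pllp had 1.11 to 2.57 FPKM, and its rise in PQ (0.99 ± 0.29, adjusted p 0.022) was lost without control 1 (1.05, 0.062), PQ 1 (1.09, 0.075), control 2 (0.94, 0.081) or PQ 2 (0.89, 0.12) and with DESeq2 (1.00, 0.1). Its rise in NAC (1.04 ± 0.29, 0.015) was lost without control 2 (0.99, 0.063), NAC 1 (1.11, 0.052) or NAC 2 (0.98, 0.083) and with DESeq2 (1.05, 0.078).

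Of 9 ligands of the lineage, 3 were tested, and 2 of them, Pdgfa and Pdgfc, were called higher in PQ over control and in PQ over NAC, against 19.2% and 31.6% of all genes tested. Pdgfa, which encodes the ligand of the Pdgfra receptor and was the most abundant ligand, had 26.5 and 28.9 FPKM in control 1 and control 2, 45.2 and 37.5 in PQ 1 and PQ 2, and 21.9 and 23.8 in NAC 1 and NAC 2. The groups did not overlap, with PQ highest and NAC lowest, while Pdgfra itself was highest in NAC. Pdgfa rose by 0.55 ± 0.13 log2 units in PQ over control (adjusted p 0.005), a call lost without PQ 1 (0.42, 0.13). In PQ over NAC it was higher by 0.88 ± 0.13 (4.1e-05) in all alternatives, and in NAC over control the log2 fold change was -0.33 ± 0.13 (0.097). The rise of Pdgfc in PQ over control (0.56 ± 0.15, adjusted p 0.015) was lost without PQ 1 (0.55, 0.095), control 2 (0.36, 0.14) or PQ 2 (0.56, 0.066). Its call in PQ over NAC (0.50 ± 0.15, 0.016) was lost with the label set as a covariate (0.40, 0.092) and without PQ 1 (0.50, 0.078), PQ 2 (0.50, 0.069), NAC 1 (0.46, 0.11) or NAC 2 (0.54, 0.052). Of 13 other receptors and genes of the sonic hedgehog pathway, 9 were tested. In PQ over control 1 was called higher (Cxcr4) and 3 lower (Fgfr3, Ptch1 and Smo), in NAC over control 1 higher (Cxcr4) and 0 lower, and in PQ over NAC 0 higher and 5 lower. The medians were -0.23, 0.05 and -0.29, and the shares called among all genes tested were 19.2%, 18.7% and 31.6%. Fgfr3, a receptor for fibroblast growth factors such as the bFGF in the medium, had 12.8 and 15.4 FPKM in control, 7.47 and 6.81 in PQ, and 13.7 and 14.7 in NAC. It fell by 1.01 log2 units in PQ over control (SE 0.12, adjusted p 1.1e-05), and the chemokine receptor gene Cxcr4 rose by 0.65 ± 0.12 (0.00068) in PQ and 0.82 ± 0.11 (4.4e-05) in NAC, all of them in every alternative. The call of Ptch1, the hedgehog receptor gene, in PQ (-0.41 ± 0.12, adjusted p 0.019) was lost without PQ 1 (-0.33, 0.21) or control 2 (-0.29, 0.13) and with limma on log2(FPKM + 1) (-0.35, 0.083) or log2(FPKM + 0.1) (-0.38, 0.08). That of its partner Smo (-0.36 ± 0.10, 0.022) was lost without PQ 1 (-0.36, 0.14), control 2 (-0.27, 0.11) or PQ 2 (-0.35, 0.11) and with limma on log2(FPKM + 1) (-0.32, 0.082) or log2(FPKM + 0.1) (-0.33, 0.082). The most abundant receptor gene, Fgfr1, lay between 58.5 and 76.5 FPKM and was called in neither comparison with control.

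Markers of other cell types were read beside these values, and their part in the results for the lineage genes was not tested. Neural stem cell markers, of which 7 of 8 were tested, had a summed FPKM of 3252 and 3329 in control, 3630 and 3683 in PQ, and 2511 and 2436 in NAC, with Vim the most abundant. The calls were 1 higher and 1 lower in PQ over control and 1 higher and 3 lower in NAC over control, against 19.2% and 18.7% of all genes tested. The higher call in NAC was Gfap, which is also on the astrocyte list, and the median of the list there was 0.07. The sum in NAC followed Vim, at 1362 and 1389 FPKM against 2171 and 2323 in control (-0.75 ± 0.08, adjusted p 3.8e-06, all alternatives). The other lower calls in NAC were Nes (-0.28 ± 0.09, 0.03), kept in 4 of 15 alternatives, and Sox2 (-0.31 ± 0.10, 0.027), kept in 8 of 15. With the label set as a covariate 2 of the 4 calls in NAC over control were left, without Nes (-0.29, 0.094) and Sox2 (-0.26, 0.16). Astrocyte markers, all 8 tested, summed to 284 and 271 in control, 279 and 296 in PQ, and 336 and 334 in NAC, with Gja1 the most abundant. In NAC over control 5 of the 8 were called higher and 1 lower, against 2 higher and 1 lower in PQ over control, where the shares among all genes tested were 18.7% and 19.2%, and their median in NAC over control was 0.87. The lower call in NAC was Gja1 itself, at 97.7 and 96.0 FPKM in NAC, 128 and 124 in control, and 154 and 165 in PQ (-0.43 ± 0.09, adjusted p 0.0022, all alternatives). Aldh1l1 was not called in NAC over control (-0.49 ± 0.31, 0.31) and was higher in PQ (1.17 ± 0.26, 0.0035), a call lost without PQ 1 (0.93, 0.091). Of the higher calls in NAC, Gfap, Aqp4, Slc1a2 and Aldoc were kept in all 15 alternatives and Slc1a3 (0.29, 0.034) in 8 of 15. Aqp4 passed the filter only through the NAC libraries (2.66 and 2.56 FPKM, against 0.54 to 0.83 in the other 4). Sox8, Pdgfra and 5 of the 10 tested progenitor surface genes were also called higher in NAC. Several genes on the lineage lists, such as Ednrb, Ptprz1, Sox9 and Fgfr3, are also made by astrocytes. Neuron markers had 1 of 9 tested, Map2, which made most of a sum of 39.0 and 36.9 FPKM in control, 35.1 and 35.6 in PQ, and 66.4 and 60.3 in NAC. Map2 rose in NAC over control by 0.77 ± 0.10 (adjusted p 1.1e-05, all alternatives). Tubb3, which missed the filter, went the other way, with 2.38 and 1.3 FPKM in control, 0.72 and 0.47 in PQ, and 0.32 and 0.44 in NAC, while Stmn2 and Neurod1 had at most 3 counts in every library. Microglia markers summed to 2.07 and 2.02 FPKM in control, 3.09 and 3.14 in PQ, and 4.59 and 3.64 in NAC. P2ry12, the most abundant and the only one tested, rose in NAC by 1.18 ± 0.26 (adjusted p 0.0033), a call lost without NAC 1 (0.86, 0.09), and Aif1, Csf1r, Tmem119, C1qa and Ptprc had at most 3 counts in every library. Schwann cell markers, which matter because Sox10 and several myelin genes are shared with that cell type, summed to 103 to 116 FPKM with Pmp22 the most abundant. In NAC over control 3 of the 4 tested were called, against 18.7% of all genes tested: Egr2 (1.38 ± 0.17, adjusted p 1e-05) and Pou3f1 (0.86 ± 0.13, 8.7e-05) rose in all alternatives, and Pmp22 was lower (-0.35 ± 0.10, 0.015). The Pmp22 call was lost without control 1 (-0.30, 0.068), NAC 1 (-0.34, 0.098) or NAC 2 (-0.37, 0.066). Fibroblast markers summed to 3.68 to 5.63 FPKM. Col3a1, the most abundant and the only one tested, was lower in PQ than in control (-0.90 ± 0.14, adjusted p 0.00022, all alternatives) and than in NAC (-0.53 ± 0.14, 0.0079), the latter lost without PQ 1 (-0.53, 0.056) or NAC 1 (-0.41, 0.11). Endothelial markers summed to 0.22 to 0.62 with Pecam1 the most abundant.

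**Figure D4:**
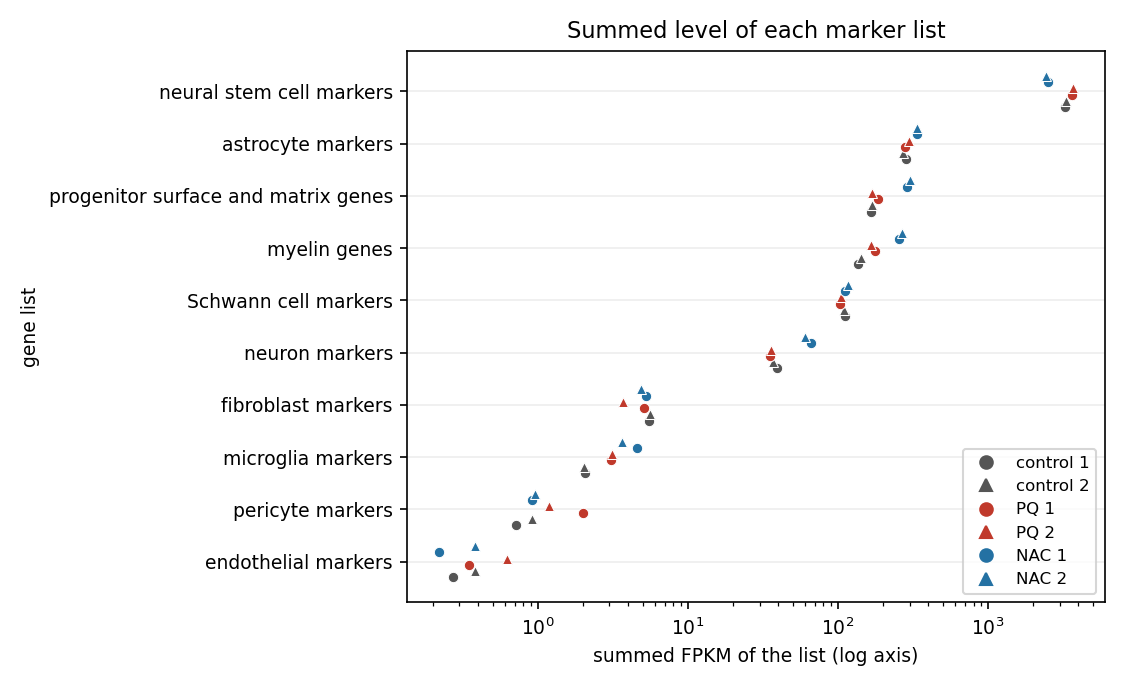
Summed FPKM on a log axis (horizontal) of each marker list (vertical), with 1 point for each library, coloured by group. The NAC libraries are highest for the progenitor surface genes (288 and 301) and the myelin genes (253 and 265) and lowest for the neural stem cell markers (2511 and 2436). Car2 is the largest part of the myelin sum in NAC (102 and 99.3), and Vim of the stem cell sum (1362 and 1389).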

How the data were processed

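RNA-seq of 6 libraries was used, with groups taken from the labels. The authors deposited an expected count and an FPKM per gene for each library. According to the submitters' processing notes, control 1 and PQ 1 were made with TopHat2 2.0.11 and Cufflinks 2.1.1 on mm9, and the other 4 with HISAT2 2.0.4, Bowtie2 2.2.5 and RSEM on mm10; all 6 tables have the columns that RSEM writes. Whole numbers made up 78.6 to 79.1% of the counts per library, and the others were rounded. Genes missing from a table were read as 0. Library totals of 9680436 to 10698241 limit what can be seen in genes with few counts. The methods name a stranded library kit, but strand use in counting is not given in the sources used here.

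Genes averaging 1 FPKM or more were tested with edgeR 4.0.16 in R 4.3.3 (TMM normalization, quasi-likelihood F test, all 6 libraries, no covariate), with Benjamini-Hochberg adjustment over all genes tested and a threshold of 0.05. Alternatives were DESeq2 1.42.0 or its size factors, limma 3.58.1 on log2 FPKM, other filters, the label set as a covariate, a replicate block, a fit of only the 4 libraries compared, each library left out in turn, and a threshold of 0.01. The same alternatives for genes of the lists were added after seeing the data. The code was tested on simulated data. Replicate libraries differed by more than sampling noise (mean chi-square per gene of 4.11 to 6.91). Symbols, positions and promoters are from RefSeq GRCm38.p6, and motifs were searched on both strands. Tables and plots used Python 3.11.15, pandas 2.3.3 and matplotlib 3.10.9.

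The lineage genes and the lists were chosen with earlier results of these data known. The genes named are the 9 lineage genes, the most abundant gene of each list and up to 5 called genes of it with the largest log2 fold change against control, and the 3 genes most like each tested lineage gene, and not every gene that this covers is described. Other genes were named because a count was 5 or fewer or a gene was at or near 0, or as examples, and were chosen after their values were seen.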

Additional observations from a re-analysis of the deposited data

Results flagged for a closer look

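Olig1 moved in opposite directions in PQ within the label sets. The log2 difference was 0.43 for PQ 1 minus control 1 and -0.10 for PQ 2 minus control 2, with 1 library on each side. The difference between the label sets was not tested.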

How the results depend on the processing

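For the 5 tested lineage genes in the 3 comparisons, 126 of 135 values under other settings and 73 of 90 values without a library kept both direction and side of the threshold. With the label set as a covariate, Cnp in NAC over control changed sign to -0.03. Without a library, Olig1 in PQ over control ranged from -0.01 to 0.34, Cnp in NAC over control from -0.1 to 0.11 and Nkx2-2 in NAC over control from -0.07 to 0.18.

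The number of lineage genes called in NAC over control was 2 and became 1 with limma on log2(FPKM + 1), 1 with limma on log2(FPKM + 0.1), 0 with edgeR and the label set as a covariate, and 0 with edgeR at an adjusted p under 0.01. DESeq2 called 2, and 2 had an unadjusted p under 0.05 in edgeR with or without the covariate. Without a library, 0 to 2 were called in NAC over control, 0 to 2 in PQ over control and 2 to 4 in PQ over NAC, all with edgeR. The counts of 0 came without control 1 or NAC 2 and without control 1 or PQ 1, with 1 or 2 at an unadjusted p under 0.05. The study's source data match 1 set of control 1, PQ 1 and NAC 2 and 1 of control 2, PQ 2 and NAC 1, which cross the label sets. With these sets as a replicate block, 1 was called in PQ over control, 2 in NAC over control and 2 in PQ over NAC, where Olig2 lost its call (-0.26, adjusted p 0.063). Ptprz1 in PQ over control lost its call too (-0.29, 0.056).

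Over all genes tested, an adjusted p under 0.01 left 1206 calls in PQ over control, 1292 in NAC over control and 2410 in PQ over NAC, as a stricter threshold must lower them. Without a library the counts ranged from 866 to 2206, from 1286 to 2126 and from 2343 to 4207. A group with a lone library is then assumed to vary like the other groups.

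Without a library, edgeR called 1 to 3, 1 to 3 and 4 to 7 lineage transcription factors in the 3 comparisons in that order, 2 to 5, 6 to 6 and 6 to 8 progenitor surface genes, 2 to 4, 4 to 5 and 2 to 4 myelin genes, and 1 to 3, 5 to 7 and 6 to 7 astrocyte markers.

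Of 33 called results of genes on the lineage lists against control, 19 kept the call under all 15 alternatives, 14 lost it under at least 1, and 0 changed direction. Over the lineage genes and the genes of all lists, markers included, the call was kept under all 15 alternatives in 11 of 27 results in PQ over control, 21 of 31 in NAC over control and 29 of 49 in PQ over NAC. Tcf7l2, Prox1, Fgfr1 and Ugt8a in PQ over NAC kept it in 4, 6, 6 and 8 of 15. Apart from the stricter threshold, the cause was not tested. With 2 libraries a group and counts as low as those of Mbp, small differences cannot be seen, and label set and treatment cannot be told apart for control 1 against NAC.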
